A study of Drosophila melanogaster with 10 samples.

Results

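The comparison set whole Drosophila melanogaster of the late hours, 10, 11 and 12, against those of the middle hours, 5, 6 and 7, of a 12 hour course without dietary yeast. Its members are the 6 arrays with those hours in their titles, 3 a side, of 10 arrays in all. Every animal on both sides had grown on standard food to the start of the third larval instar, then on standard food without yeast, and the course started 4 days after the adults emerged. No group on yeast was used, so the hour was the only labelled difference between the sides. Each hour was 1 array of total RNA from whole flies, and the labels do not name a strain or sex or say how many flies were pooled. The other 4 arrays, of hours 1, 2, 3 and 9, are cited only to place a value in the course.

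Values are the authors' normalized intensities on a linear scale, which compare 1 probe set (the set of short oligonucleotides that reads 1 transcript) between arrays but not different genes with each other. Differences are late minus middle on the log2 scale, from limma with 3 arrays a side and Benjamini-Hochberg adjustment over all 8380 probe sets bright enough to test, with the standard error (SE) after the ± sign. The 3 hours of a side are not repeats of 1 hour, so the spread holds both the scatter of single arrays and any course within the side. In whole flies, fewer cells of a type and less RNA per cell cannot be told apart.

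In flies, the transcription factors Clock and Cycle bind E-box sites and switch on period (per), timeless (tim), vrille (vri), Pdp1 and clockwork orange (cwo). The proteins of per and tim return to the nucleus and repress their own activators, which makes these RNAs rise and fall over the day, in the eye, fat body and gut as well as in brain clock cells. Flies that feed without yeast lack their main source of protein and lipid, and insulin signalling, FOXO and the fat body adjust growth, egg production and stores to that supply. The labels give no time of day and no light cycle for the course.

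The arrays of hours 6, 7 and 10 carried signals of their own, which are given before the results. Summed over 8 testis markers, all present on the array, intensity was 1535 to 1567 in the late hours and 1554 to 4047 in the middle hours, with the top value at hour 7. The 8 accessory gland markers, all dim, summed to 296 to 317 in the late hours and 286 to 634 in the middle hours, again with hour 7 on top. The 3 yolk protein genes, made in the female fat body, summed to 615 to 1071 in the late hours and 721 to 2187 in the middle hours, highest at hour 6. Late and middle ranges overlapped as well for markers of ovary (late 1176 to 1301, middle 1213 to 1552; 7 of 9 on the array), hemocyte (late 854 to 928, middle 826 to 974; 5 of 5), photoreceptor (late 1303 to 1801, middle 1343 to 1535; 4 of 6), flight muscle (late 782 to 1251, middle 1092 to 1481; 3 of 3) and midgut (late 7099 to 8505, middle 6755 to 7903; 2 of 4). No marker on the array was at 0. Hour 10 was the lowest late value in 48.8% of all tested probe sets, and hour 6 the highest middle value in 43.9%. The ratio of the 3' to the 5' actin control probe sets, a sign of RNA integrity, was 1.84, 2.34 and 2.05 in the late hours and 1.80, 2.56 and 1.81 in the middle hours. Its difference of 0.03 on the log2 scale was within the spread (two-sided exact permutation test over 3 against 3 arrays, p = 0.8, where 0.1 is the smallest p the design allows). For GAPDH the ratio was 4.77, 3.94 and 3.34 late and 4.0, 3.53 and 2.88 in the middle hours, and its difference was 0.21 (exact permutation p = 0.5). What part these signals had in the results below was not tested.

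No transcript passed the test between the late and the middle hours. Of the 8380 probe sets 0 had an adjusted p under 0.05 (0% called), and the smallest adjusted p was 0.376 (limma). An unadjusted p under 0.05 was reached by 443 probe sets (5.29%), of which 117 (1.4%) were higher and 326 (3.89%) lower in the late hours. The median difference was -0.03, and 9 in 10 probe sets lay between -0.23 and 0.14. Differences above 0 made up 40.6% of all, 3406 probe sets. All 3 late values lay above all 3 middle values in 385 probe sets (4.59%) and below them in 585 (6.98%). That split depended on the scaling. After quantile normalization it was 618 above and 397 below, and after centring each array on its median it was 585 above and 392 below, so the excess of lower values was not kept. Hour 10 held the lowest late value in 378 of the 585 lower probe sets (64.6%) and the highest late value in 216 of the 385 higher ones (56.1%), against 48.8% and 31.7% over all tested probe sets. Hour 6 held the highest middle value in 278 of the 585 lower probe sets (47.5%), against 43.9% over all. It held the lowest middle value in 171 of the 385 higher ones (44.4%), against 27.9% over all.

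**Figure D1:**
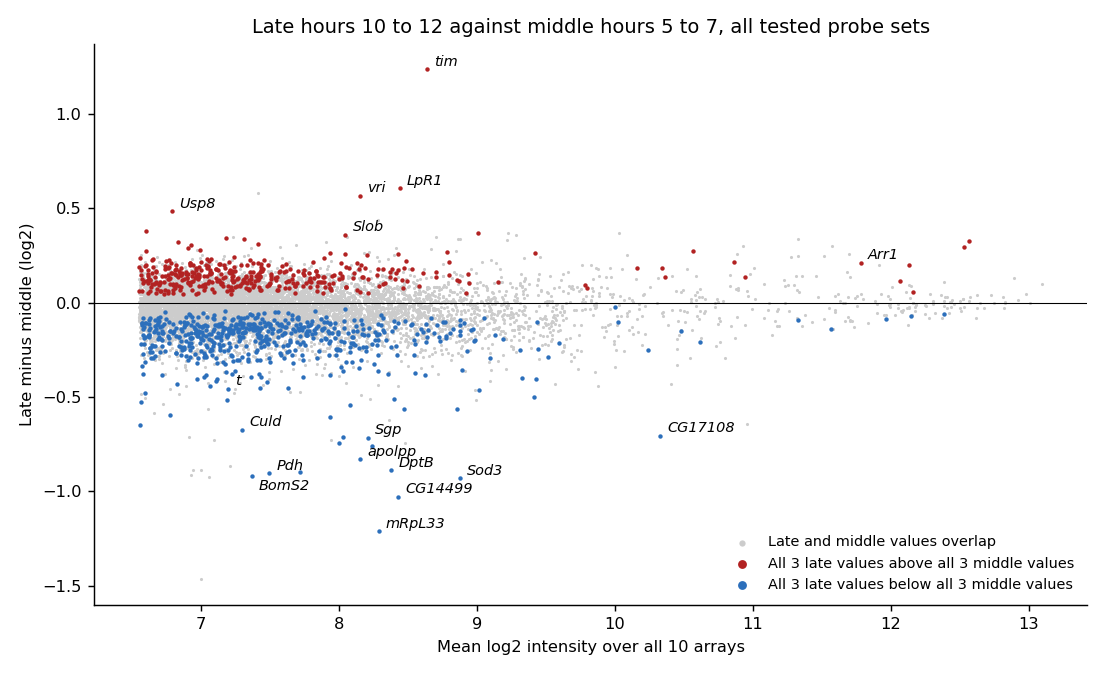
Late minus middle difference (log2, vertical axis) of the 8380 tested probe sets against their mean log2 intensity over all 10 arrays (horizontal axis); red points have all 3 late values above all 3 middle values, blue points all 3 below, grey points overlap. Most points lie between -0.23 and 0.14, and tim stands highest at 1.23.

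Past a 2-fold difference there were 4 probe sets, 1 higher and 3 lower. The higher one was tim, and mRpL33 and CG14499 were lower. The last was an unnamed probe set at -1.47 ± 0.58 (adjusted p = 0.832) whose late and middle values overlapped, singled out here after its value was seen.

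The clock genes under E-box control stood higher in the late hours than in the middle hours, led by tim. tim encodes the light-sensitive partner of the period protein. It had 472, 677 and 786 intensity units at hours 10, 11 and 12, against 298, 258 and 251 at hours 5, 6 and 7. Every late value lay above every middle value, and the late values climbed hour by hour while the middle ones stayed close together. The difference was 1.23 ± 0.18, or 2.35-fold (n = 3 a side; limma, adjusted p = 0.376). tim passed without the hour 10 array, with a difference of 1.44 and an adjusted p of 0.0132, and again without hours 7 and 10 (1.39, adjusted p = 0.039, an alternative chosen after seeing the data). Over all alternatives its difference ranged from 1.02 to 1.44 and its adjusted p from 0.0132 to 0.9996. At hours 1, 2 and 3 tim had 636, 348 and 268 units and at hour 9 it had 345, so hour 3 was already at the middle level. Its 2 further probe sets were too dim to test.

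vri, which encodes a repressor of Clock, had 319, 418 and 426 units in the late hours and 259, 252 and 268 in the middle hours. The sides did not overlap, and the hour 9 value of 335 already lay above the lowest late one. Its difference was 0.57 ± 0.12 (limma, adjusted p = 0.832). per had 189, 156 and 172 units late and 128, 137 and 143 in the middle hours, again without overlap, a difference of 0.34 ± 0.08 (adjusted p = 0.832). Within the late side the order differed between these genes: hour 10 was the lowest late hour for tim and vri and the highest for per.

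Pdp1, an activator of Clock, and cwo, a repressor acting at E-boxes, shared a different shape. Pdp1 had 234, 372 and 360.2 units late and 242, 228 and 277 in the middle hours, and cwo had 265, 401 and 385 late and 257, 296 and 325 in the middle hours. For both, hour 10 sat among the middle values and hours 11 and 12 above them all. Their differences were 0.35 ± 0.17 and 0.24 ± 0.16 (limma, adjusted p = 0.832 for each). A second tested probe set of cwo had a difference of 0.19 ± 0.07 with no overlap.

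All 5 E-box clock genes thus had a positive difference, with a median of 0.35 beside -0.03 over the 6822 named genes tested. Of all genes 39.3% had a positive difference. An unadjusted p under 0.05 was reached by 3 of the 5 in the higher direction (1.25% of all genes, 85 of them), and the values of 3 did not overlap (4.38%, 299 genes). Averaged over the 5 genes and set against each gene's own mean over the course, the level was 0.05, 0.43 and 0.49 on the log2 scale at hours 10, 11 and 12, against -0.25, -0.26 and -0.16 at hours 5, 6 and 7. These averages did not overlap. The same held for the averages of clock outputs, retinoid and histamine recycling, cuticle, odorant-binding protein, and glutathione and UDP-glycosyl transferase genes. The list median was 0.56 without hour 10 and 0.33 to 0.43 without any other single array.

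The clock genes of the opposite phase did not share that direction. cry, which encodes the blue-light photoreceptor of clock cells, had 247, 270.3 and 235 units late and 303, 319 and 258 in the middle hours, a difference of -0.22 ± 0.10 with overlap (limma, adjusted p = 0.832). Clk, the gene for Clock itself, was too dim to test, with 51.2, 47.5 and 47.2 units late and 56.2, 67 and 84.6 in the middle hours. The late values of Clk lay below all middle ones, but every late value and the lowest middle value were under the floor of 57.2 units.

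**Figure D2:**
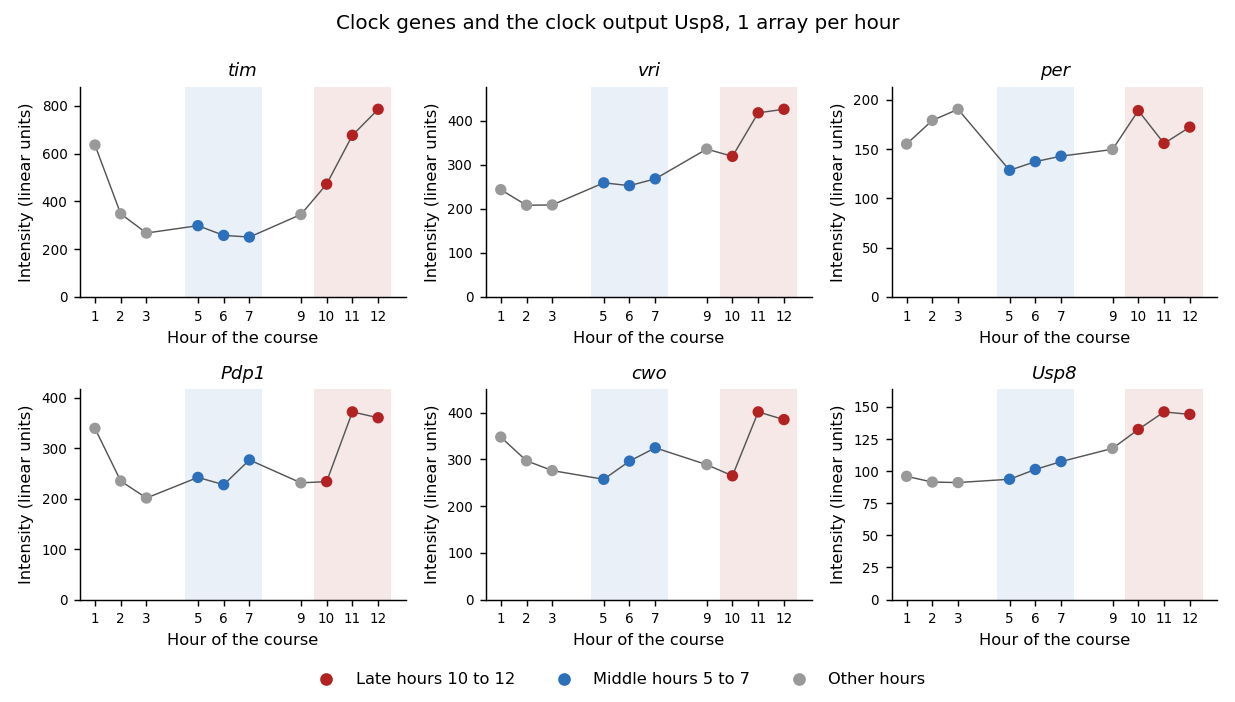
Intensity (linear units, vertical axes from 0) of tim, vri, per, Pdp1, cwo and Usp8 against the hour of the course, 1 array per point; red marks late hours 10 to 12, blue middle hours 5 to 7 and grey the other hours. tim, vri, per and Usp8 have every red point above every blue one, whereas hour 10 of Pdp1 and cwo lies within the blue range.

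Genes known to follow the clock split in both directions. Usp8, a deubiquitinase gene with 132, 146 and 144 units late and 93.7, 101 and 107 in the middle hours, had a difference of 0.48 ± 0.08 without overlap (limma, adjusted p = 0.376). Slob encodes a protein that binds the Slowpoke potassium channel. Its brighter probe set had 275, 296 and 333 units late and 243, 234 and 226 in the middle hours, also without overlap, a difference of 0.36 ± 0.09, while its second probe set differed by 0.12 ± 0.09. Jhbp13, of the juvenile hormone binding family, went the other way, with 192, 246 and 199 units late and 287, 326 and 242 in the middle hours. Its sides overlapped by a small margin at a difference of -0.42 ± 0.13 (adjusted p = 0.832 for Slob and for Jhbp13). CG2121 differed by 0.11 ± 0.10.

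LpR1, a lipophorin receptor gene, had 383, 473 and 477 units late and 179, 362 and 379 in the middle hours. Its sides were parted by a narrow gap, hour 5 stood far below the other middle hours, and the difference was 0.61 ± 0.26 (limma, adjusted p = 0.832). Leaving out single arrays or changing the processing moved it between 0.26 and 0.90. Tret1-1, a trehalose transporter gene, differed by 0.32 ± 0.13 by a dimmer probe set and by 0.07 ± 0.10 by its brightest one. kumpel differed by 0.34 ± 0.12 by one probe set and by 0.01 to 0.17 by the other 4 tested. CG1792, CG14566, CG13659 and CG15605 completed the 10 smallest p-values in this direction, with differences of 0.30, 0.20, 0.23 and 0.23 and no overlap. None of these passed (limma, adjusted p = 0.832 for each).

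Genes of the eye differed in both directions, with the recycling genes t and Pdh lower and the arrestin gene Arr1 higher. The gene t (tan) encodes the hydrolase that frees histamine, the photoreceptor transmitter, from its beta-alanine conjugate. t had 113, 113 and 119 units in the late hours and 164, 158 and 151 in the middle hours. The late values were nearly equal and lay well below the middle ones, at a difference of -0.46 ± 0.06, 1.37-fold lower (limma, adjusted p = 0.376). Pdh, a retinol dehydrogenase gene of retinal pigment cells, had 105, 141 and 94.6 units late and 258, 224 and 159.6 in the middle hours. Its sides did not overlap and the difference was -0.90 ± 0.19 (adjusted p = 0.832). Hour 9 lay near the late level for both, at 118 units for t and 128 for Pdh. Culd encodes a photoreceptor protein that takes part in the traffic of rhodopsin and the TRPL channel. It had 98.9, 137 and 126 units late and 196, 202 and 173 in the middle hours, without overlap, and a difference of -0.67 ± 0.12 (adjusted p = 0.531).

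Of the 4 tested genes of retinoid and histamine recycling, 2 were lower without overlap (7.23% of all genes, 493 of them) and had an unadjusted p under 0.05 (3.97%, 271 genes). The other two, Balat and ninaG, differed by -0.08 ± 0.11 and by -0.02. The list median was -0.27 over these 4 genes, -0.03 over all 9 on the array with no brightness filter and -0.46 with a filter at the 60th percentile.

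Phototransduction genes as a list had no common direction, with a median of 0.00 over 15 tested genes, 8 above 0 and 7 below. Arr1, the less abundant of the eye arrestin proteins in textbook accounts, had 3956, 3996 and 4127 units late and 3563, 3451 and 3435 in the middle hours. It did not overlap, at 0.21 ± 0.05 (limma, adjusted p = 0.832). trpl, a light-gated channel gene, had 639, 925 and 843 units late and 589, 649 and 652 in the middle hours. Of the late values hour 10 lay within the middle range, and the difference was 0.33 ± 0.14. The scaffold gene inaD had 218, 228 and 209 units late and 254, 244 and 249 in the middle hours, without overlap, at -0.19 ± 0.07. The eye G protein subunit gene Gbeta76C had -0.21 ± 0.08 without overlap, and inaC, an eye protein kinase C gene, had -0.31 ± 0.12 with overlap. These were the 2 higher and 3 lower members with an unadjusted p under 0.05, beside 1.25% and 3.97% of all genes, and their adjusted p was 0.832 each. The main channel gene trp and the arrestin gene Arr2 differed by 0.01 ± 0.16 and -0.05 ± 0.06.

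**Figure D3:**
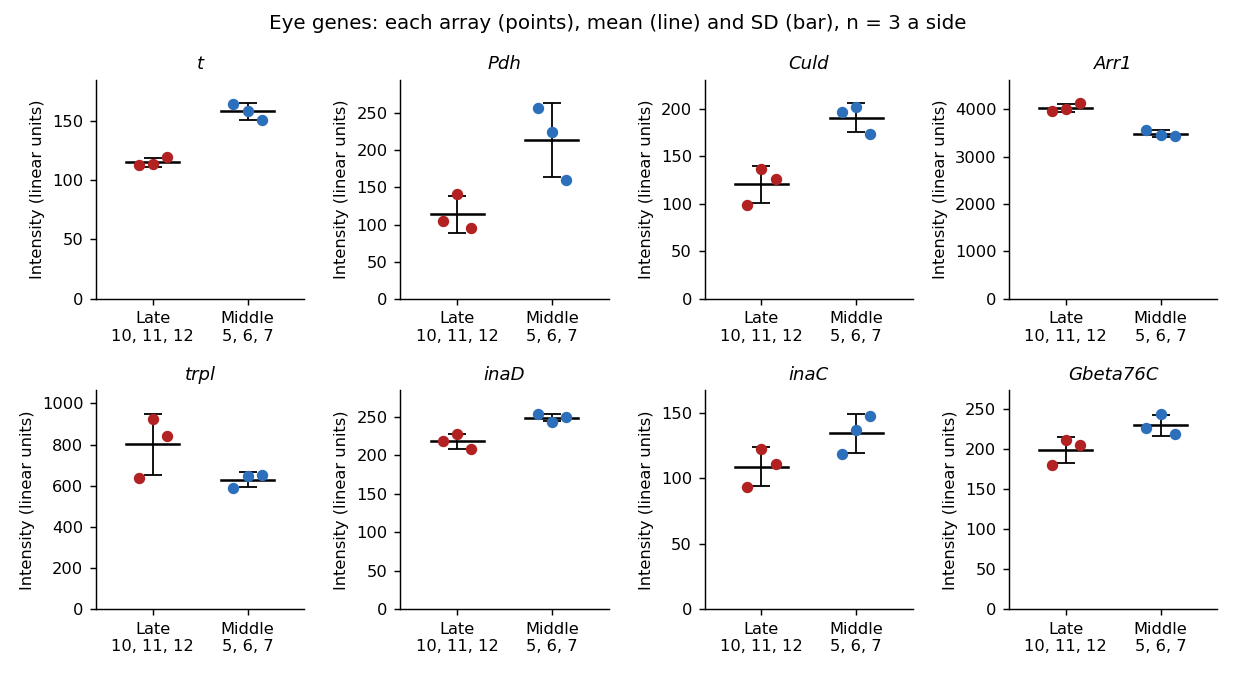
Intensity (linear units, vertical axes from 0) of 8 eye genes on each late array (red, left: hours 10, 11 and 12) and each middle array (blue, right: hours 5, 6 and 7), with the mean as a line and the SD as a bar (n = 3 a side). t, Pdh, Culd, inaD and Gbeta76C have all late points below the middle ones, Arr1 has them above, and trpl and inaC overlap.

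The largest lower differences belonged to genes of several kinds. mRpL33, a subunit gene of the mitochondrial ribosome, had 119.7, 212 and 338 units in the late hours and 379, 436 and 646 in the middle hours. Sod3, the extracellular superoxide dismutase gene, had 229, 400.0 and 449.8 units late by its brightest probe set and 559.7, 616 and 830.3 in the middle hours. The sides did not overlap for either gene, and both increased from the first to the last hour of each side, with hour 10 the lowest of the 6 arrays and hour 7 the highest. The differences were -1.21 ± 0.35 and -0.93 ± 0.25 (limma, adjusted p = 0.832 for each). The other two tested probe sets of Sod3 differed by 0.07 ± 0.07 and 0.01 ± 0.07, so that gene had no common direction over its probe sets. Under the alternatives mRpL33 ranged from -1.57 to -0.60 and the brightest Sod3 probe set from -1.12 to -0.47.

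CG14499 had 194, 308 and 197 units late and 337, 542 and 545 in the middle hours. It did not overlap, at -1.03 ± 0.23, although its hour 9 value of 524 belonged with the middle ones. Sgp had 251, 233 and 209.7 units late and 352, 353 and 438 in the middle hours, without overlap, with a difference of -0.72 ± 0.11 (limma, adjusted p = 0.376 for Sgp and 0.832 for CG14499). Srg2 (104, 162 and 158 units late; 184, 307 and 303 in the middle hours) and CG2233 (291, 378 and 397 late; 498, 569 and 499 in the middle hours) did not overlap either, at -0.90 ± 0.23 and -0.57 ± 0.13. CG17108 had 732, 1005 and 888 units late and 1509, 1799.6 and 1041 in the middle hours, a difference of -0.70 ± 0.20 whose sides nearly met at hours 11 and 7.

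apolpp, the precursor gene of the lipoprotein that carries fat between organs, had 164, 252 and 243 units late and 331, 549 and 310.0 in the middle hours. Its sides did not overlap at -0.83 ± 0.24, and its second tested probe set, which did overlap, differed by -0.46 ± 0.16. Acbp5, of the acyl-CoA binding family, had 153, 255 and 197 units late and 305, 355 and 346 in the middle hours, a difference of -0.76 ± 0.17 without overlap. At hour 9, however, Acbp5 stood at 359.7, above all 6 arrays compared (limma, adjusted p = 0.832 for apolpp and Acbp5). Ugt35B1, a UDP-glycosyltransferase gene, had 165, 215 and 185 units late and 289.9, 302 and 262 in the middle hours, without overlap, at -0.60 ± 0.11 (adjusted p = 0.531). Its second probe set differed by 0.01 ± 0.07. Small, tight differences completed the 10 smallest p-values in this direction, those of Idgf1, a chitinase-like growth factor gene, at -0.30 ± 0.06, and geko at -0.28 ± 0.06, whose second probe set differed by -0.09.

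The antimicrobial peptide genes DptB and Mtk were lower in the late hours, and the other tested members, Def and Drs, overlapped. DptB, a diptericin gene induced through the Imd pathway, had 178, 183 and 178 units in the late hours and 366, 521 and 194 in the middle hours. Late values were level, while middle values ranged more than 2-fold and came within a small step of them at hour 7. The difference was -0.89 ± 0.30, and it ranged from -1.28 to -0.12 under the alternatives, the smallest with hour 9 joined to the late side. Hour 9 had the highest DptB value of the course, 1531 units, and hour 2 had 1041. Mtk, the metchnikowin gene, had 244, 229.7 and 218 units late and 309, 476 and 268 in the middle hours, a difference of -0.56 ± 0.19 without overlap, and 1419.7 units at hour 9. With hour 9 joined to the late side its difference turned to 0.09. Defensin (Def) and drosomycin (Drs) differed by -0.09 ± 0.18 and 0.03 ± 0.07 (limma, adjusted p = 0.832 for DptB and Mtk and 0.912 for Def). Of the 4 tested antimicrobial peptide genes 2 were lower without overlap, beside 7.23% of all genes. The list median was -0.33, and it was -0.13 over all 6 genes on the array with no brightness filter, -0.16 without hour 6 and 0.03 with hour 9 joined.

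Bomanins, short secreted peptides induced through the Toll pathway, and the iron carrier gene Tsf1 had negative differences in 8 of 8 tested members, with a median of -0.40. Over all genes 39.3% had a difference above 0. Of the 8, 1 was lower without overlap, BomS2, beside 7.23% of all genes. BomS2 had 54.9, 117 and 136 units late and 149, 259.9 and 158 in the middle hours, a difference of -0.92 ± 0.32 (limma, adjusted p = 0.832), and 527 at hour 9. Its hour 10 value was under the floor of 57.2 units and was set to it in the fit. The mean level of the list against each gene's course mean was -0.69, -0.17 and -0.14 at hours 10, 11 and 12, against -0.05, 0.48 and -0.19 at hours 5, 6 and 7. These averages overlapped. The median was -0.20 without hour 10, -0.14 without hour 6 and -0.06 with hour 9 joined. Peptidoglycan recognition genes had a median of -0.10, which was 0.01 without hour 10, and PGRP-SB1 had the smallest p among them, at -0.28 ± 0.11.

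**Figure D4:**
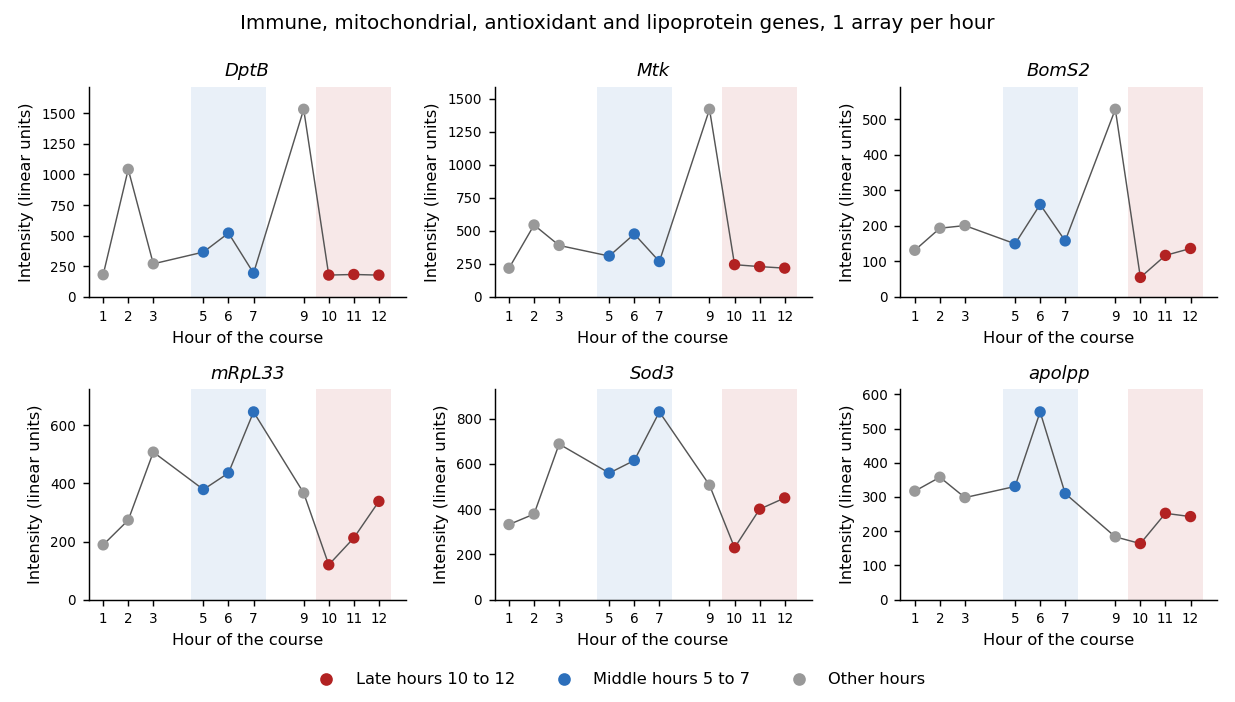
Intensity (linear units, vertical axes from 0) of DptB, Mtk, BomS2, mRpL33, Sod3 and apolpp against the hour of the course, 1 array per point; red marks late hours 10 to 12, blue middle hours 5 to 7 and grey the other hours. All red points lie below all blue points in each panel, and hour 9 of DptB, Mtk and BomS2 lies far above both at 1531, 1419.7 and 527 units.

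Genes of nutrient signalling showed small differences. In the insulin and TOR list 9 genes were tested, 4 above 0 and 5 below, with a median of -0.03 that became 0.01 under quantile normalization. The insulin receptor substrate gene chico had 375, 370.0 and 359.9 units late and 337, 345 and 334 in the middle hours, higher without overlap at 0.12 ± 0.07. raptor, of the TOR complex, was likewise higher without overlap at 0.09 ± 0.06, and foxo, the transcription factor gene that insulin signalling restrains, was lower without overlap at -0.13 ± 0.07. Of the 9 genes 2 were higher and 1 was lower without overlap, beside 4.38% and 7.23% of all genes. The receptor gene InR differed by 0.07 ± 0.07 with overlap. Insulin-like peptide 2 (Ilp2), made in brain neurosecretory cells, had 138, 135 and 136 units late and 122, 126 and 129 in the middle hours, without overlap, at 0.11 ± 0.06. Ilp2 was 1 of 2 neuropeptide genes higher without overlap among 13 tested, beside 4.38% of all genes. None of chico, raptor, foxo, InR and Ilp2 had an unadjusted p under 0.05 (limma, adjusted p from 0.832 to 0.851).

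Among FOXO and starvation targets, 5 of 6 genes were below 0 and 1 above, beside 39.3% of all genes above 0. Pepck1, which commits carbon to gluconeogenesis, had 633, 653 and 732 units late and 732, 956 and 1062 in the middle hours, meeting at one value, with a difference of -0.43 ± 0.14. The small heat shock protein gene l(2)efl had 507, 655 and 638 units late and 684, 765 and 937 in the middle hours, without overlap, at -0.40 ± 0.14. The lipase genes Lip4 and bmm differed by -0.15 ± 0.07 and -0.10 ± 0.10. Fat breakdown genes had a median of -0.12 over 11 tested, of which yip2, a mitochondrial thiolase gene, had the smallest p at -0.21 ± 0.09. Fatty acid synthesis genes had a median of 0.02 over 12, and ATPCL, the ATP citrate lyase gene, the smallest p among those above 0 at 0.20 ± 0.10. In the neuropeptide list Nplp2 had 1338, 1345 and 1726 units late and 2383, 2981 and 1661 in the middle hours, with hour 7 at the late level, and a difference of -0.64 ± 0.20. The hormone genes Akh and Pdf differed by -0.03 ± 0.07 and 0.08 ± 0.10. The adjusted p was 0.832 or above for each of these genes (limma).

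Genes of energy metabolism leaned low as groups by small amounts. Subunits of oxidative phosphorylation had negative differences in 53 of 56 tested genes and a median of -0.10. The other 3 lay above 0, as did 39.3% of all genes (2678). Without overlap 3 of the 56 were lower and none higher, beside 7.23% and 4.38% of all genes. An unadjusted p under 0.05 was reached by 1 member (5.22% of all genes, 356 of them). It was ND-B12, a complex I subunit gene, at -0.28 ± 0.12. Against each gene's course mean the list stood at -0.25, 0.07 and -0.004 at hours 10, 11 and 12 and at 0.07, 0.15 and -0.03 at hours 5, 6 and 7. Hour 10 alone lay below the middle hours, and without it the list median was -0.03, beside -0.009 over all tested probe sets in the same fit. Glycolysis genes had 9 of 9 below 0, none without overlap, and a median of -0.12 that was -0.02 without hour 10. Translation factors had a median of -0.07, which was 0.03 without hour 10, and aminoacyl-tRNA synthetases had -0.10, which was 0.01 without it.

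Mitochondrial ribosomal proteins had 45 of 57 differences below 0 and a median of -0.08. Above 0 were 12 of the 57, beside 39.3% of all genes. Here 10 of the 57 were lower without overlap and none higher, beside 7.23% and 4.38% of all genes. Besides mRpL33, mRpL16 and mRpS6 had an unadjusted p under 0.05, at -0.20 ± 0.08 and -0.22 ± 0.09. mRpL16 had 274, 295 and 289 units late and 329.7, 337 and 318 in the middle hours, so its late values were tightly grouped and hour 10 was not far from the other late hours. The list median was -0.03 without hour 10 and -0.03 without hour 6. Cytosolic ribosomal proteins had a median of -0.03 over 33 tested, equal to that of all genes.

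The yolk proteins, which load the egg with stores, stood highest at hour 6 among the 6 arrays. The yolk protein gene Yp1 had 165, 326 and 162 units late and 241, 735 and 180.1 in the middle hours, with hour 6 far above the rest. Yp2 had 179, 234 and 166 units late and 216, 509 and 175 in the middle hours. Yp3 had 271, 511 and 328 late and 385, 943 and 366 in the middle hours. All 3 genes overlapped and shared a high hour 6 and a high hour 11. Their differences were -0.62 ± 0.49, -0.49 ± 0.35 and -0.52 ± 0.37 (limma, adjusted p = 0.832 for each), and the list median of -0.52 was -0.03 without hour 6. The maternal RNA localization gene exu had 110.4, 114 and 112 units late and 119.7, 180.4 and 150.0 in the middle hours. It was lower without overlap at -0.40 ± 0.13, the 1 of 5 tested female germline genes to be so, beside 7.23% of all genes. All 5 of these germline genes were below 0, while 39.3% of all genes were above 0. Eggshell genes had a median of 0.03 over 8, with 7 above 0, 1 below and no gene free of overlap.

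Sperm genes stood apart at hour 7. Mst87F, a sperm tail gene, had 107, 97.2 and 102 units late and 115, 101 and 575 in the middle hours, and its difference of -0.88 ± 0.56 ranged from -1.33 to -0.08 under the alternatives. All 6 tested testis genes were below 0, with a median of -0.43, which was -0.03 without hour 7. Over all genes 39.3% were above 0. The proteasome list, whose median was -0.002 over 34 genes and 0.04 under quantile normalization, held its smallest p-values in subunit forms known for expression in the testis. Prosalpha4T1 had 81.6, 85.1 and 86.6 units late and 100.5, 101 and 131 in the middle hours, at -0.38 ± 0.11, and Prosalpha4T2 had -0.16 ± 0.06, both lower without overlap. Prosalpha3T was higher without overlap at 0.22 ± 0.10. Of the 34 proteasome genes 2 were higher and 3 lower without overlap, shares near the 4.38% and 7.23% of all genes. Of the 6 arrays hour 7 had the top value of Prosalpha4T1, as of the testis marker sums, but hour 7 had the lowest middle value of Prosalpha4T2, and hour 10 had the top value of Prosalpha3T. The part of testis cells in these differences was not tested.

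The remaining lists gave few members that stood apart. Glutathione and UDP-glycosyl transferases, which conjugate toxins and hormones, had 7 of 35 tested genes lower without overlap and none higher, beside 7.23% and 4.38% of all genes. Of these, Ugt35B1, GstE6, Ugt302C1, GstE3 and Ugt36D1 had an unadjusted p under 0.05, 5 genes, beside 3.97% of all genes in the lower direction. GstE6 had 195, 242 and 263 units late and 264, 333 and 287 in the middle hours, so the sides were parted by a very small gap, at -0.34 ± 0.13. GstE3 and Ugt302C1 were at -0.22 ± 0.08 and -0.30 ± 0.10. The list median was -0.06. Cytochrome P450 genes divided evenly at 23 above 0 and 23 below, with 2 higher and 3 lower without overlap, shares near the 4.38% and 7.23% of all genes.

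Among 17 tested odorant-binding protein genes 13 were below 0 and the median was -0.11. Above 0 were 4 of the 17, beside 39.3% of all genes. Obp99c had 364, 463 and 461 units late and 586, 697 and 499 in the middle hours, lower without overlap at -0.46 ± 0.15. Obp56g differed by -0.51 ± 0.20 with overlap, its middle side led by hour 7. Muscle genes had 13 of 14 below 0 and a median of -0.13, with 2 lower without overlap, beside 7.23% of all genes. Above 0 was 1 of the 14, beside 39.3% of all genes. The flight muscle actin gene Act88F had 583, 913 and 983 units late and 1062, 867 and 1174 in the middle hours, overlapping, at -0.35 ± 0.20. The muscle median was -0.06 without hour 10. Proton pump subunits (V-ATPase) had a median of 0.03 over 24 and digestive enzymes of 0.01 over 30. Among heat shock genes the constitutive chaperone Hsc70-4 was higher without overlap at 0.11 ± 0.05 and Hsp27 lower at -0.12 ± 0.06 (limma, adjusted p = 0.832 for each of these genes).

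**Figure D5:**
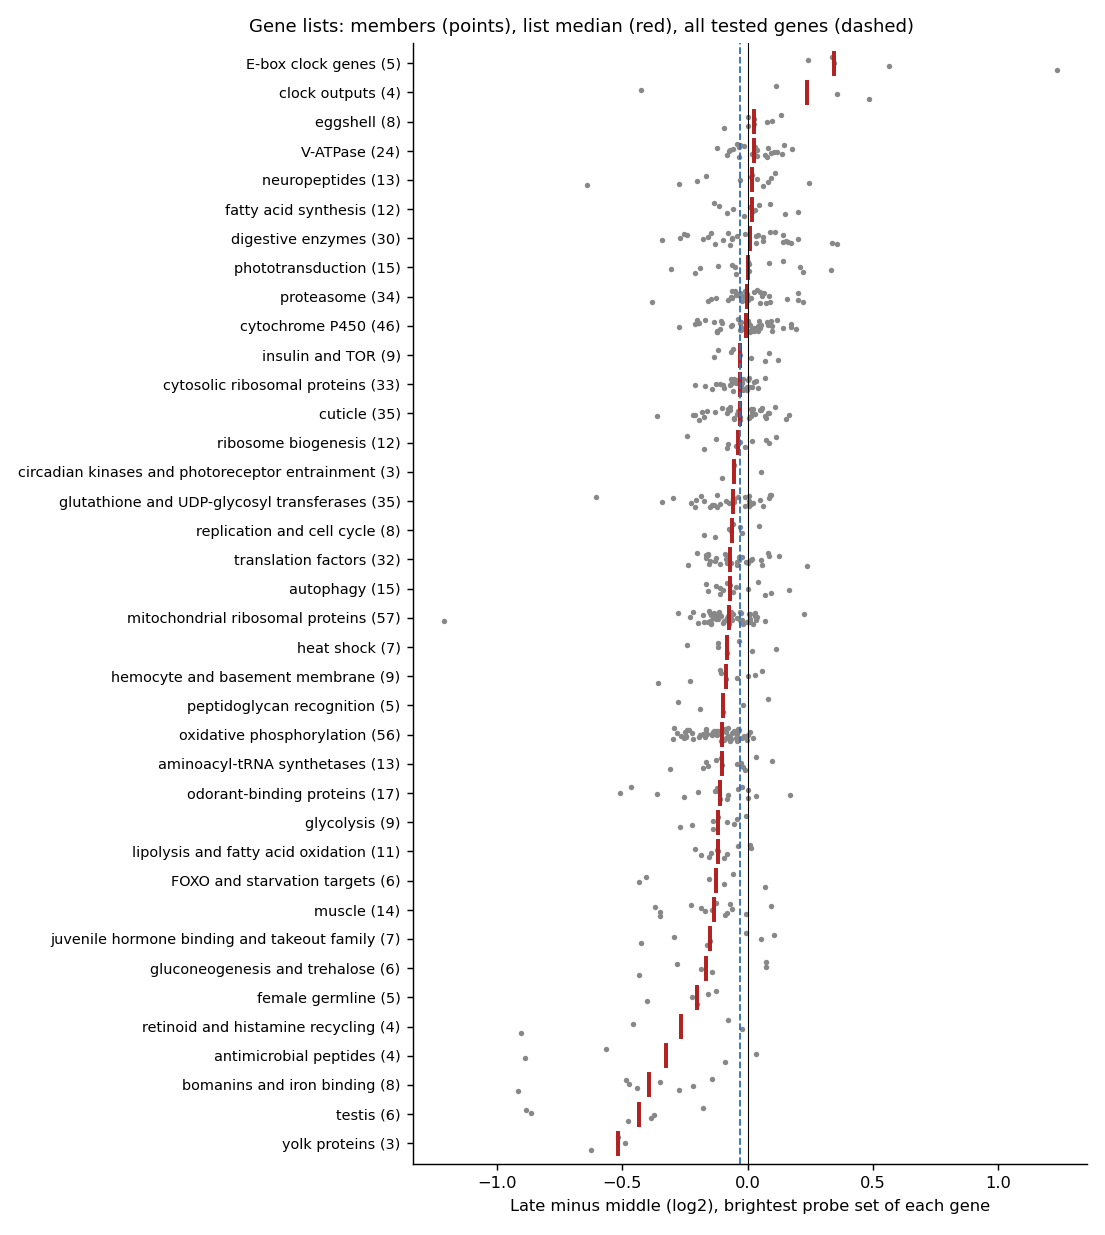
Late minus middle difference (log2, horizontal axis) of each tested member (grey points, brightest probe set of a gene) of the gene lists with 3 or more tested genes, 1 list per row with its number of tested genes, sorted by the list median (red bar); the dashed line is the median of all 6822 genes, -0.03, and the solid line is 0. E-box clock genes stand at the top with a median of 0.35 and yolk proteins at the bottom with -0.52.

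The array of hour 9, which belongs to neither side, lay between them in time. Its value was nearer to the late mean than to the middle mean in 390 of the 585 probe sets with lower late values (66.7%) and in 223 of the 385 with higher ones (57.9%), against 58.6% of all tested probe sets. The mean of hours 1 to 3 was nearer to the late mean in 244 of the 385 higher probe sets (63.4%) and in 238 of the 585 lower ones (40.7%), against 53.8% of all. These shares use the same late and middle arrays that chose the probe sets and are given as a description. tim, per, Pdp1 and cwo were among the genes with an hour 1 value above every middle value, while vri at hour 1, with 243 units, lay below every middle value. Pdh, t and Culd had hour 1 values that also exceeded every middle value while their late values lay below.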

How the data were processed

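Whole-fly RNA was hybridised to Affymetrix arrays and normalized by the authors with dChip, per the labels. The deposited table holds linear intensities; which dChip model and genome build were used is not stated in the labels. Such scaling removes a change shared by most transcripts. The table held 14010 probe sets, 44 of them controls, with 0 missing values and 0 unused columns. Array medians were 111.2 to 120.1. The platform annotation named 1 gene for 12443 probe sets, several for 327 and none for 1196, and 12394 symbols were updated by Entrez identifier.

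Intensities under the 20th percentile, 57.2, were set to it before log2, which understates differences of dim transcripts. Probe sets with a mean log2 at or above the 40th percentile over all 10 arrays were tested. limma 3.58.1 in R 4.3.3 (lmFit, eBayes with an intensity trend) was fitted to the 6 arrays, two-sided. Lists used each gene's brightest tested probe set. The threshold of a call was an adjusted p under 0.05 alone, and probe sets past a 2-fold difference were counted apart from it. Nothing says that arrays came from separately reared groups of flies, so p-values measure only the spread between these single arrays. Their number limits the precision. Before use, the fit was tested on simulated data.

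The comparison, its members, the gene lists and the fixed genes were chosen with earlier results of these data known. Named genes were those past the threshold, the 10 smallest p-values and the 8 largest non-overlapping differences a direction, up to 3 members of each list and a fixed set. Further list members were picked with their values in view. Tables were handled in Python 3.11.15 with pandas 2.3.3. In all, 20 other settings changed scaling, floor, filter, variance model, arrays, covariates and probe set choice.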

Additional observations from a re-analysis of the deposited data

How the results depend on the processing

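No probe set was called in the comparison as fitted (smallest adjusted p = 0.376, limma; 443 at an unadjusted p under 0.05), and the count was 0 to 1 when single arrays were left out. The 1 was tim without hour 10, and tim was also the 1 called without hours 7 and 10, an alternative chosen after seeing the data. The smallest adjusted p was 0.06 after quantile normalization and 0.0776 with actin 3' to 5' ratios in the model. Unadjusted p-values under 0.05 numbered 708 with no filter, 290 with a filter at the 60th percentile, 254 with all 10 arrays in 1 fit, 823 with the actin covariate and 259 to 502 without single arrays. Higher non-overlapping probe sets numbered 618 after quantile normalization, 585 after median centring, 233 with the stricter filter, 1379 without hours 7 and 10 and 630 to 863 without single arrays. Lower ones numbered 1621 without hours 7 and 10 and 866 to 1233 without single arrays. Fewer arrays a side make non-overlap easier. The actin ratio difference was -0.06 to 0.19 without single arrays. Of 2729 values of 138 named gene results, 16 changed sign. Because no gene had passed as fitted, these changes could fall only on genes that had not passed. Without single arrays, Balat ranged from -0.16 to 0.038, sa from -0.037 to 0.12, aly from -0.037 to 0.043, Send1 from -0.096 to 0.032, Def from -0.25 to 0.088, PGRP-LB from -0.38 to 0.0060, dco from -0.22 to 0.057 and tws from -0.0098 to 0.17. With hour 9 joined to the late side, Mtk was 0.092, Send1 0.0030 and tws -0.0071. Without hours 7 and 10, sa was -0.016 and dco 0.014. tim passed in 2 alternatives, and the other 2711 values kept their direction and side of the threshold. The cause was not tested. No paired analysis was possible because the labels give no replicate numbers and each hour is a single array.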
